A study of Mus musculus with 7 samples.

Results

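The cytosolic heat shock proteins described here are 10 named genes: the HSP70 chaperones Hspa1a, Hspa1b and Hspa8, the HSP90 chaperones Hsp90aa1 and Hsp90ab1, the small heat shock proteins Hspb1 and Hspb6, the HSP40 partner Dnajb1, the HSP110 protein Hsph1 and the transcription factor Hsf1. They were chosen by name, and every probe set annotated to one of them was taken. The annotation gave 20 probe sets for 8 of the 10 genes, among 18193 genes measured, and each of the 20 was matched to 1 gene alone. Hsp90ab1 and Hsf1 were not analysed here.

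Erythroblasts expressing TER-119 and CD71 were sorted from the marrow of irradiated C57BL/6 Ly5.1 hosts (B6.SJL_PtprcaPep3b/BoyJ, 11 to 15 weeks old when irradiated with 1050 rad) that had received fetal liver cells of B6-Sod2tm1Cje littermates, collected at E13.5-16.5. Donors were Sod2+/+ (replicates 17, 29, 33 and 37) or Sod2-/- (replicates 31, 35 and 39), so both genotypes share the host strain, the irradiation, the transplant and the sort. SOD2 is the superoxide dismutase of the mitochondrial matrix, and mice reconstituted with Sod2-/- stem cells serve as a model of sideroblastic anemia. The gate used TER-119 and CD71 and not the Ly5 marker that tells donor from host, so it does not remove host erythroblasts. By the study's account the gate spans several erythroblast stages, and Sod2-/- marrow held more of the immature ones. The study saw no significant difference in size or morphology between the sorted cells of the genotypes. The part of erythroblast stage in the differences below was not tested. The labels do not say whether arrays stand for different animals, so the p-values may cover no more than technical spread. One more Sod2-/- array was not analysed here.

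Heat shock proteins are chaperones that bind unfolded or partly folded proteins. HSP70 proteins hold short exposed stretches in a cycle driven by ATP. J-domain proteins of the HSP40 family deliver clients to them, and HSP110 proteins release the nucleotide. Hspa1a and Hspa1b encode the inducible HSP70, which is low in unstressed cells and is induced when HSF1 binds heat shock elements in their promoters, whereas Hspa8 encodes the constitutive HSC70. In maturing erythroblasts HSP70 is known for protecting GATA1, the main erythroid transcription factor, from caspase-3.

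Promoters are shown for the gene pair with the largest increase among the heat shock proteins (Hspa1a and Hspa1b), for the gene that fell (Hspb6), and for Hsph1, whose promoter holds the full heat shock element searched for. Each window spans 250 bases before to 50 bases after an annotated start, from RefSeq on GRCm38.p6: Hspa1a at chr17:34972107-34972406 and Hspa1b at chr17:34959189-34959488, each on the minus strand, Hspb6 at chr7:30553051-30553350 on the plus strand (the second of its 2 starts) and Hsph1 at chr5:149636287-149636586 on the minus strand. Capitals mark matches of GAANNTTC or TTCNNGAA, that is, 2 adjoining units of the element. The sequences read 5′ to 3′ on the gene's strand.
Hspa1a: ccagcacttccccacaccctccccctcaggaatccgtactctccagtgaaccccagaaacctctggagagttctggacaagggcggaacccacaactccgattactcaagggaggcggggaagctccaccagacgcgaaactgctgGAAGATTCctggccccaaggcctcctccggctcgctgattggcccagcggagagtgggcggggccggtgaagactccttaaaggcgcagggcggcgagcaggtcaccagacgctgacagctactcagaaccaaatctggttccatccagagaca
Hspa1b: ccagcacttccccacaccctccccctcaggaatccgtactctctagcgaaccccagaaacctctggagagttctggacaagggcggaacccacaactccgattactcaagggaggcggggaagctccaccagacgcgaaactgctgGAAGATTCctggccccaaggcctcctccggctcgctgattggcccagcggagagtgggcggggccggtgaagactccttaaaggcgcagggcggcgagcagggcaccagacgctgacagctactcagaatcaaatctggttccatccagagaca
Hspb6: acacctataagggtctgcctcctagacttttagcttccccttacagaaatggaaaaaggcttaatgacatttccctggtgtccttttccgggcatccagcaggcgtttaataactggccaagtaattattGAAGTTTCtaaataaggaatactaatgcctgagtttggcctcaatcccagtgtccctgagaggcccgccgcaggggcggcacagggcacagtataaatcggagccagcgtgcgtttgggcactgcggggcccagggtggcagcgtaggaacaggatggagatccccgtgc
Hsph1: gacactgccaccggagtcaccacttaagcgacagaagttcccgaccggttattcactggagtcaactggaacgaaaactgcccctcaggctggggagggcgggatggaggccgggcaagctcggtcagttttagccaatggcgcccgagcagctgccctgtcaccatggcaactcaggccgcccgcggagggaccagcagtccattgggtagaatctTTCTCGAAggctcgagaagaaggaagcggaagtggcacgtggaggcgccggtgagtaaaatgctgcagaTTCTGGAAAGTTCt

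The Hspa1a and Hspa1b windows differ at 4 of 300 bases (98.7% identical), and each holds 1 match of 2 units, GAAGATTC, that begins 104 bases before the start. The element as searched has 3 alternating units, GAANNTTCNNGAA or TTCNNGAANNTTC, which covers both strands, and 0.603% of 32851 promoter windows hold it. Of the 6 heat shock protein genes with a window here, Hsph1 alone holds it, 36 bases after the start shown. The shorter form of 2 units, which every match of 3 units contains, was added after the sequences were seen. It is found in 15.1% of all windows and in those of 5 of the 6 genes, Dnajb1 being without it. Hspb6 has it 120 bases before the start shown and not in the window of its other start. A match is a run of letters and was not measured as a binding site. Units with a changed letter were not searched for, so a window without a match was not shown to lack an element.

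A probe set was called where its limma p, adjusted over the 45037 probe sets tested (Benjamini-Hochberg), was below 0.05. Differences are the mean of the Sod2-/- arrays minus that of the Sod2+/+ arrays, in the deposited log2 values. Among the 20 heat shock protein probe sets, 1 was called higher in Sod2-/- erythroblasts, beside 0.566% of all probe sets, and 1 was called lower, beside 2.83% of all probe sets. The higher one belongs to Hspa1b and the lower one to Hspb6. The median difference of the 20 was 0.04, and that of all probe sets was 0.03. The methods' t-test with the same adjustment called neither, and over all probe sets it called only 1 higher and 3 lower. The study, whose comparison held 1 more Sod2-/- array, listed Hspa1b as higher and Hspb6 as lower in Sod2-/- cells past its thresholds.

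**Figure D1:**
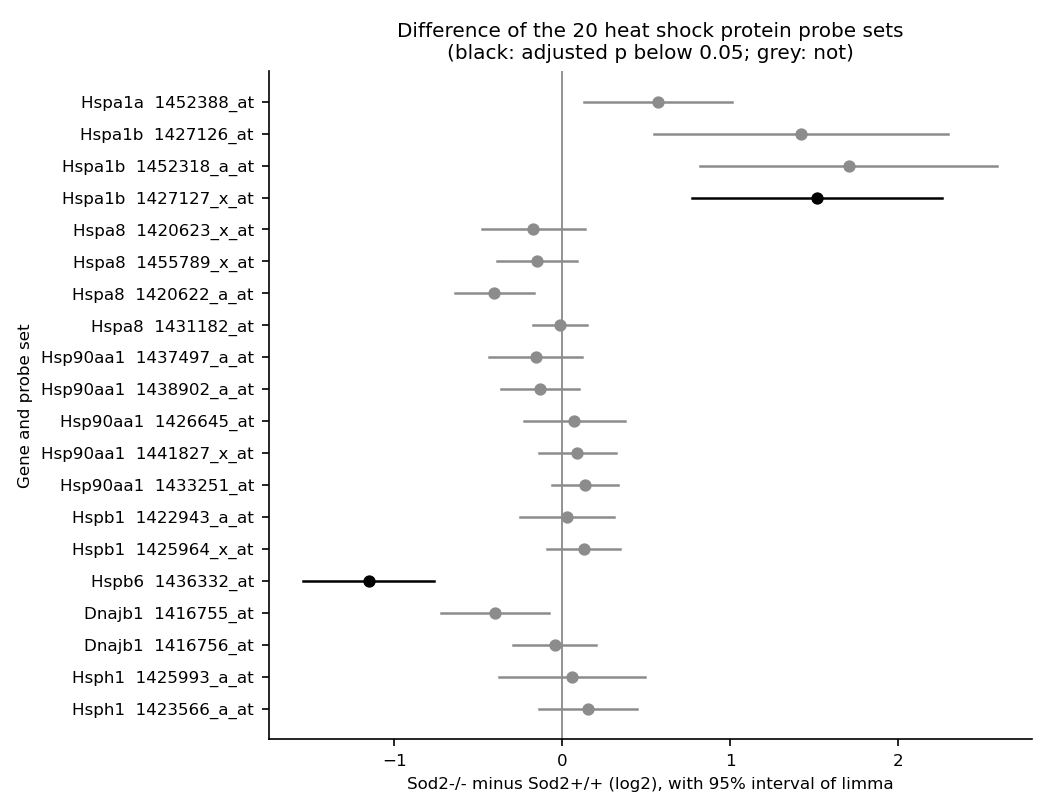
Difference between Sod2-/- and Sod2+/+ arrays (x axis, log2) for each of the 20 heat shock protein probe sets (y axis), with the 95% interval of limma as a line. The 4 Hspa1a and Hspa1b probe sets lie to the right between 0.57 and 1.70, Hspb6 lies at -1.15, and the other 15 lie between -0.41 and 0.15.

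Hspa1b, one of the pair of inducible HSP70 genes, had the largest increases among the heat shock proteins on its 3 probe sets. On 1427127_x_at the values were 3.54, 3.45, 3.74 and 3.93 in Sod2+/+ replicates 17, 29, 33 and 37, and 5.63, 4.22 and 5.70 in Sod2-/- replicates 31, 35 and 39. The lowest Sod2-/- array stood above the highest Sod2+/+ array, and replicate 35 was the nearest to the Sod2+/+ range. The difference was 1.52 (standard error 0.33, 2.86-fold, limma adjusted p = 0.0454).

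On 1452318_a_at Hspa1b had 3.80, 3.36, 3.87 and 3.78 in the Sod2+/+ arrays and 5.44, 4.38 and 6.39 in Sod2-/- replicates 31, 35 and 39. Its difference of 1.70 (standard error 0.39, 3.26-fold) did not pass the threshold (limma adjusted p = 0.0532). On 1427126_at the values were 3.76, 3.94, 3.87 and 3.81 against 5.36, 4.20 and 6.25, a difference of 1.42 (standard error 0.38, limma adjusted p = 0.0838). The order of the Sod2-/- arrays was the same on all 3 probe sets, with replicate 39 highest and replicate 35 lowest.

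Hspa1a, the neighbouring copy that encodes nearly the same HSP70 protein, showed the same order on its single probe set 1452388_at. It had 3.40, 3.53, 3.55 and 3.41 in the Sod2+/+ arrays and 4.01, 3.56 and 4.55 in Sod2-/- replicates 31, 35 and 39. Sod2-/- replicate 35 barely cleared the Sod2+/+ range, and the difference of 0.57 (standard error 0.19) did not pass the threshold (limma adjusted p = 0.149). Across the 7 arrays the 4 probe sets followed each other with Pearson r of 0.90 to 0.99 over 6 pairs. The genes are near copies, so probe sets of one may take up transcripts of the other, and the pair cannot be told apart with certainty.

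In the Sod2+/+ arrays the 4 probe sets lay below the array medians of all probe sets, which ran from 4.45 to 4.54 over the 7 arrays. So did Sod2-/- replicate 35 on all 4 and replicate 31 on Hspa1a, so the contrast within chip lot 1 sets dim values against dim values. Deposited values at that level sit close to background, where a fold change is compressed, so the size of the increase is uncertain. With 32 added to the linear values, the differences of the 3 Hspa1b probe sets were 0.65 to 0.78 in place of 1.42 to 1.70.

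**Figure D2:**
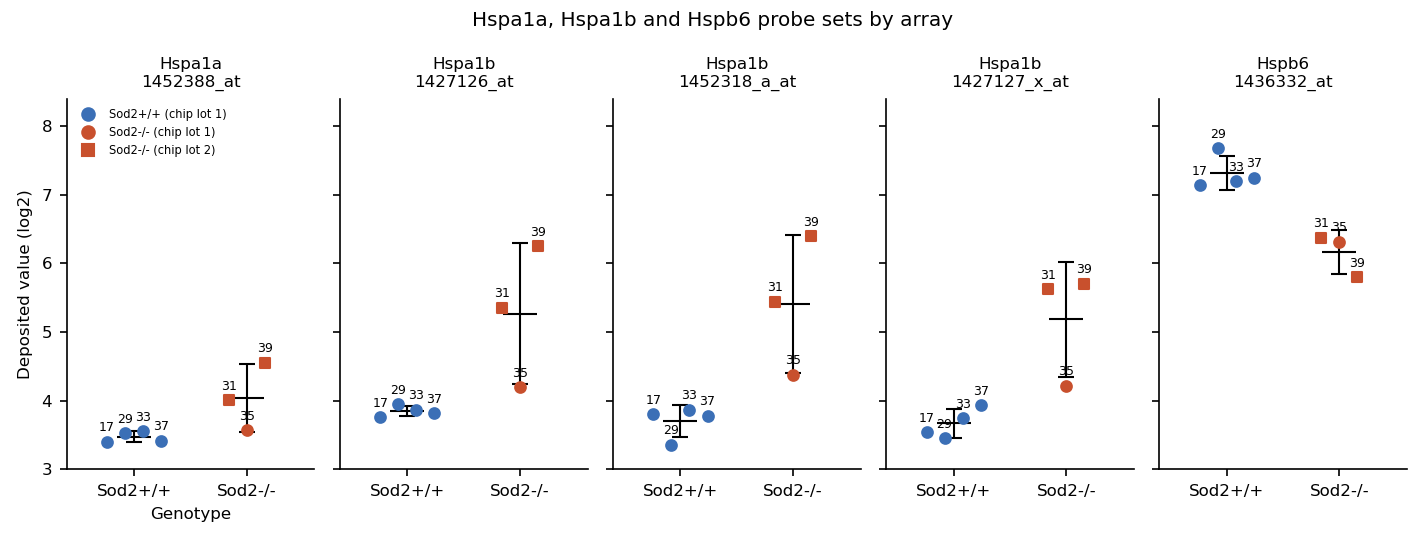
Deposited log2 value (y axis) of the Hspa1a, Hspa1b and Hspb6 probe sets in each array, labelled by replicate number, with group mean and SD as a dash and bars (4 Sod2+/+ in blue, 3 Sod2-/- in red, squares for chip lot 2). On the 4 Hspa1 probe sets Sod2-/- replicates 31 and 39 (squares) lie above replicate 35, and on Hspb6 all 3 Sod2-/- arrays lie below the 4 Sod2+/+ arrays.

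The chip lot moved with this increase. All Sod2+/+ arrays and Sod2-/- replicate 35 were of chip lot 1, and Sod2-/- replicates 31 and 39 were of chip lot 2. The mean of the 4 Hspa1a and Hspa1b probe sets was 3.57 to 3.76 in the Sod2+/+ arrays, 4.09 in replicate 35, 5.11 in replicate 31 and 5.73 in replicate 39. Within chip lot 1 (4 arrays against 1), the Hspa1b differences were 0.35, 0.55 and 0.68 (limma adjusted p from 0.159 to 0.208), with the lone Sod2-/- array assumed to vary like the others. With chip lot as a block they had the same sizes (limma adjusted p from 0.169 to 0.591), and Hspa1a differed by 0.09. The sizes had to match, because chip lot 2 held no Sod2+/+ array. Both settings compare replicate 35 alone with the Sod2+/+ arrays. Without replicate 35 all 3 Hspa1b probe sets were called, with differences of 1.96 to 2.22 (limma adjusted p from 0.00358 to 0.0262). In that setting all Sod2-/- arrays were of chip lot 2 and all Sod2+/+ arrays of chip lot 1, so chip lot and genotype cannot be told apart. The part of the chip lot in the increase was not tested apart from these values.

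The fluidics station did not divide the arrays in this way. Station 1 held Sod2+/+ replicates 17 and 29 and Sod2-/- replicate 31, and station 2 held the rest. The fluidics module, however, divided the genotypes fully. All Sod2+/+ arrays ran on module 1 or 3, Sod2-/- replicates 31 and 39 on module 4, and replicate 35 on module 2. Module and genotype cannot be told apart here, and the part of the module was not tested. Within station 1 the Hspa1b differences were 1.504 to 2.13 and within station 2 they were 1.12 to 1.56, none past the threshold with so few arrays (limma adjusted p from 0.388 to 0.543).

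Other genes that stress or handling of cells can raise were set beside Hspa1a and Hspa1b. Of 22 immediate early genes, transcription factors and regulators that are induced within minutes of a stimulus, none was called and 8 lay above 0 (3 had an unadjusted p under 0.05 and lay lower, 1 higher). Their summed linear level ran from 5682 to 7502 in the Sod2+/+ arrays and from 5669 to 8611 in the Sod2-/- arrays. The largest differences were in Ier3, 0.82 (limma adjusted p = 0.284), with 6.71 in Sod2-/- replicate 39 and 4.48 to 5.502 in the Sod2+/+ arrays, and in Klf2, -0.70 (limma adjusted p = 0.206).

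Some macrophage markers, the C1q chains most of all, set Sod2-/- replicate 39 apart. Csf1r, Adgre1, Cd68 and Spic were also highest in that array, and Vcam1, Mrc1, Siglec1 and Cd163 were not. C1qc, a chain of complement C1q, stood at 8.33 there, at 4.17 and 4.68 in Sod2-/- replicates 31 and 35, and at 3.75 to 4.25 in the Sod2+/+ arrays. C1qb stood at 8.09 in replicate 39 and between 4.44 and 4.64 in the other 6 arrays. The summed level of 11 macrophage markers ran from 504 to 596 in the Sod2+/+ arrays and from 422 to 1496 in the Sod2-/- arrays, and none was called (1 higher at an unadjusted p under 0.05). The part of these cells in the Hspa1b values was not tested. Without replicate 39 the Hspa1b differences were 0.93 to 1.26 (limma adjusted p from 0.0766 to 0.133).

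RNA quality was read from control probe sets. The 3′ minus 5′ difference of the Gapdh control probe sets was 1.24 to 1.45 in the Sod2+/+ arrays and 1.10 to 1.21 in the Sod2-/- arrays (difference -0.18, exact two-sided permutation p = 0.0571, where 0.0286 is the smallest possible). That of Actb was 0.67 to 0.87 and 0.69 to 0.78 (difference -0.02, exact two-sided permutation p = 0.80). Their part in the Hspa1b values was not tested.

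Hspa1a and Hspa1b lie side by side on chromosome 17, which also carries Sod2. Of the 5 nearest measured genes on each side of the pair, 0 were called higher and 2 lower by limma, and the differences ran from -0.86 to 0.16 (unadjusted p under 0.05 for none that lay higher). Hspa1l, the testis HSP70 gene next to them, had 3.68 to 3.87 in the Sod2+/+ arrays and 3.84 to 4.10 in the Sod2-/- arrays (limma adjusted p = 0.336). The 2 that fell were Lsm2, an RNA-binding protein of mRNA decay and splicing (-0.80), and 1110038B12Rik (-0.86). Of 1496 probe sets of chromosome 17, 0.936% were called higher and 3.74% lower, against 0.46% and 3.30% on the other chromosomes. Sod2 had 8.20 to 8.62 in the Sod2+/+ arrays and 8.09 to 8.61 in the Sod2-/- arrays on 1448610_a_at, its brightest probe set. The Sod2 allele lacks 1 exon, and probe sets elsewhere in the transcript still detect it by the study's account, so Sod2 gives no check of the labels here.

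The 5 genes whose 7 values followed the mean of the Hspa1a and Hspa1b probe sets most closely, of 11957 compared, were Flcn, Anxa7, Rab36, Arap3 and Chit1, with Pearson r of 0.96 to 0.98. Anxa7, an annexin, had 7.99 to 8.27 in the Sod2+/+ arrays and 8.98, 8.56 and 9.41 in Sod2-/- replicates 31, 35 and 39. Flcn, the folliculin gene, had 5.51 to 5.61 in the Sod2+/+ arrays and 6.18, 5.93 and 6.45 in the Sod2-/- arrays in that order. These r values come from the same 7 arrays and the highest of many comparisons, and are a description only.

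Hspb6, a small heat shock protein best known from muscle, was the member that fell. It had 7.14, 7.68, 7.20 and 7.25 in Sod2+/+ replicates 17, 29, 33 and 37, and 6.38, 6.32 and 5.79 in Sod2-/- replicates 31, 35 and 39. Every Sod2-/- array stood below every Sod2+/+ array, and replicate 35 was near replicate 31. The difference was -1.15 (standard error 0.17, 2.22-fold lower, limma adjusted p = 0.0206).

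The Hspb6 difference was -1.001 within chip lot 1 and with chip lot as a block (limma adjusted p = 0.0995 as a block), neither past the threshold. Both again compare replicate 35 alone with the Sod2+/+ arrays. Leaving out Sod2+/+ replicate 37 or Sod2-/- replicate 35 also ended the call (limma adjusted p = 0.0539 and 0.0569), with differences of -1.18 and -1.23.

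Markers of other cell types moved beside Hspb6. Of 11 B cell markers measured, 8 were called lower, beside 4.47% of all genes, and none higher. Their summed level was 906 to 1118 in the Sod2+/+ arrays and 498 to 550 in the Sod2-/- arrays. Cd79a and Cd79b, the signaling chains of the B cell receptor, fell by 1.78 and fell by 1.58 in that order, and Spib, a B cell transcription factor, fell by 1.68. All 11 neutrophil markers lay below 0, 10 at an unadjusted p under 0.05, and none was called, with a summed level of 34609 to 43283 against 16495 to 34429. The largest differences among them were in Camp, -1.05 (limma adjusted p = 0.0646), and Mmp8, -1.03 (0.149), each a granule protein. In sorted bulk samples, fewer cells of a type and less RNA per cell cannot be told apart, and the part of these cells in the Hspb6 and other decreases was not tested.

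Of 8 muscle and smooth muscle genes limma called none, also at an unadjusted p under 0.05, and 7 lay above 0, with summed levels of 277 to 291 and 286 to 313. Tagln differed by 0.17 (limma adjusted p = 0.290) and Acta2 by 0.15 (0.635). The mean of the 10 erythroid markers was 11.45 to 11.68 in each array, above the 95th percentile of all probe sets, which was 8.20 to 8.71. None was called (1 lay higher at an unadjusted p under 0.05), and their summed level was 36376 to 37738 in the Sod2+/+ arrays and 36901 to 41463 in the Sod2-/- arrays. Tfrc, the transferrin receptor CD71 used in the sort, differed by 0.20 on its brightest probe set (limma adjusted p = 0.175), and Nfe2 by 0.17 (0.350). The study itself reports Tfrc as higher in Sod2-/- cells on its arrays, by qPCR and as CD71 protein. Other Tfrc probe sets are not reported here. The 6 T cell markers had no call (1 in each direction at an unadjusted p under 0.05), with Cd2 at -0.27 (0.221) and Cd8a at 0.26 (0.199). Nor did the 6 megakaryocyte markers (1 lower at an unadjusted p under 0.05), with Gp9 at -0.56 (0.110) and Itga2b at 0.35 (0.294).

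The other 5 genes, constitutive and heat-inducible, were not called in either direction. The 15 probe sets of Hspa8, Hsp90aa1, Hspb1, Dnajb1 and Hsph1 differed by -0.41 to 0.15 (limma adjusted p from 0.0715 to 0.938). Their 95% intervals reached from -0.72 to 0.49 at most. Hspa8 1431182_at, Hsp90aa1 1441827_x_at and 1433251_at and Hsph1 1423566_a_at had means below the median probe set, where a fold change is compressed. The genotypes did not overlap on 2 of the 15, each lower in Sod2-/- arrays and with an unadjusted p under 0.05.

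**Figure D3:**
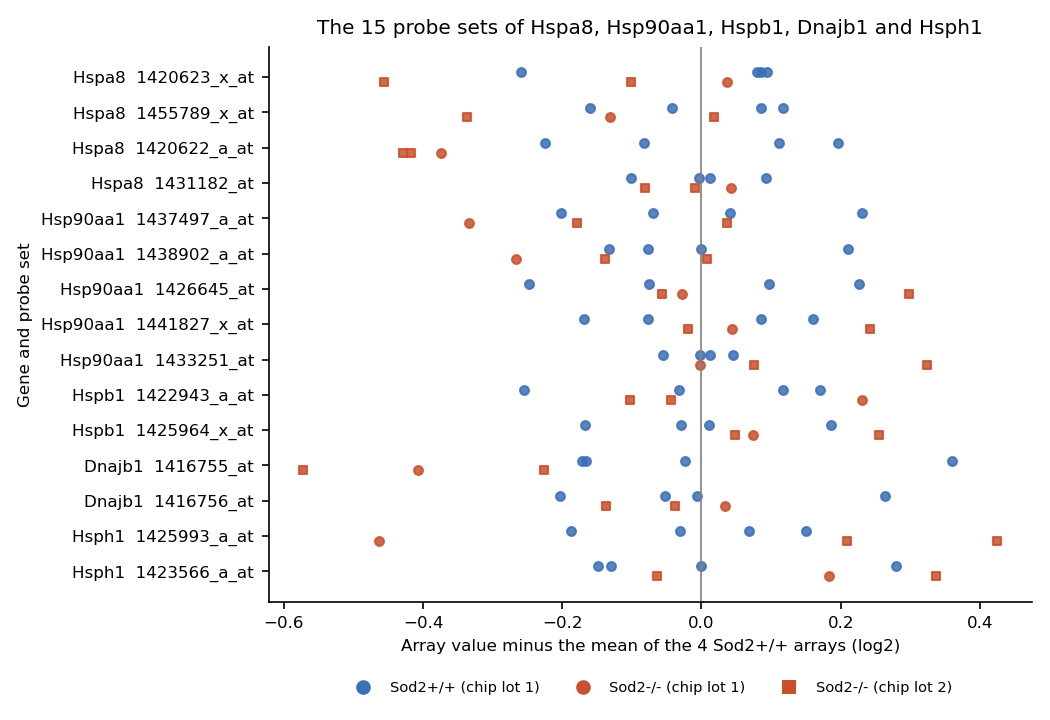
Value of each array minus the mean of the 4 Sod2+/+ arrays (x axis, log2) for the 15 probe sets of Hspa8, Hsp90aa1, Hspb1, Dnajb1 and Hsph1 (y axis), Sod2+/+ in blue, Sod2-/- in red and squares for chip lot 2. The colours overlap on all but Hspa8 1420622_a_at and Dnajb1 1416755_at, and Hsph1 1425993_a_at has Sod2-/- replicate 35 to the left and replicates 31 and 39 to the right.

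Hspa8, the constitutive HSC70 that also uncoats clathrin, was measured by 4 probe sets. On 1420622_a_at it had 9.04, 9.32, 8.90 and 9.24 in the Sod2+/+ arrays and 8.70, 8.75 and 8.71 in Sod2-/- replicates 31, 35 and 39. All Sod2-/- arrays lay below all Sod2+/+ arrays, by a difference of -0.41 (standard error 0.10, limma adjusted p = 0.0715), which passed without Sod2+/+ replicate 33 (-0.48, limma adjusted p = 0.0396) and was -0.19 with quantile normalization (limma adjusted p = 0.271). The groups overlapped on the other 3. On 1420623_x_at the Sod2+/+ arrays ran from 10.30 to 10.65 and the Sod2-/- arrays from 10.10 to 10.59, a difference of -0.17 (95% interval -0.48 to 0.13). Those of 1455789_x_at and 1431182_at were -0.15 and -0.02.

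Hsp90aa1, the inducible HSP90 of the cytosol, had 5 probe sets with differences of -0.16 to 0.13 (limma adjusted p from 0.451 to 0.821). On 1437497_a_at the values were 10.09, 10.34, 10.22 and 10.53 in the Sod2+/+ arrays and 10.12, 9.96 and 10.33 in the Sod2-/- arrays, which overlap. The difference was -0.16 (95% interval -0.44 to 0.12). On 1426645_at it was 0.07 (95% interval -0.23 to 0.37), so the signs of its probe sets differed.

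Dnajb1, a J-domain partner that is itself heat-inducible, had 9.62, 10.15, 9.62 and 9.77 in the Sod2+/+ arrays and 9.56, 9.38 and 9.22 in Sod2-/- replicates 31, 35 and 39 on 1416755_at. The groups did not overlap, though Sod2-/- replicate 31 lay close to the lowest Sod2+/+ array, and the difference was -0.40 (standard error 0.14, limma adjusted p = 0.160). Its other probe set, 1416756_at, had 8.997 to 9.46 against 9.06 to 9.24 and a difference of -0.05 (95% interval -0.30 to 0.20).

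Hsph1, the HSP110 exchange factor whose promoter holds the full element, had 6.86, 6.68, 6.52 and 6.78 in the Sod2+/+ arrays and 6.92, 6.25 and 7.13 in Sod2-/- replicates 31, 35 and 39 on 1425993_a_at. Replicate 35 lay below and replicates 31 and 39 above all Sod2+/+ arrays, the division by chip lot seen for Hspa1b. The difference was 0.06 (standard error 0.19, limma adjusted p = 0.911), and within chip lot 1 it was -0.46 (limma adjusted p = 0.179). Hspb1, the small heat shock protein HSP25, had 5.29 to 5.72 in the Sod2+/+ arrays and 5.45 to 5.78 in the Sod2-/- arrays on 1422943_a_at, a difference of 0.03 (95% interval -0.25 to 0.31). On its other probe set it was 0.13 (limma adjusted p = 0.529).

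Over the 20 probe sets, the genotypes did not overlap on 4 that lay higher in Sod2-/- arrays (those of Hspa1a and Hspa1b), where 7.84% of all probe sets did so, and on 3 that lay lower (Hspb6, Hspa8 and Dnajb1), where 10.2% did.

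Partners, relatives and regulators of these chaperones and other HSF1 targets were followed on 62 genes in 7 lists, each gene on its brightest probe set. Of the 62, 1 was called higher, beside 0.412% of all genes, and 8 were called lower, beside 4.47% of all genes. The median difference was -0.16, where that of all genes was 0.02. With 1 array left out, counts were taken with the immediate early genes included, and 1 to 8 genes were called lower. Without Sod2+/+ replicate 29 or 37 or Sod2-/- replicate 35 only 1 was. The 1 higher call was not past the threshold with chip lot as a block or in chip lot 1 alone. The 95th percentile of all probe sets was 8.42 to 8.71 in the Sod2+/+ arrays and 8.20 to 8.42 in the Sod2-/- arrays. With quantile normalization 826 of all probe sets were called lower in place of 1275, and the list counts were not taken in that setting. The part of this shift of bright probe sets in the list values was not tested.

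Of 17 J-domain partners, 1 rose and 3 fell (median difference -0.28). Dnaja4, a heat-inducible J-domain protein, had 7.87 to 8.34 in the Sod2+/+ arrays and 8.53 to 8.82 in the Sod2-/- arrays, a difference of 0.56 (standard error 0.12, limma adjusted p = 0.0462). That call ended in 6 of the 7 leave-outs of 1 array, all but that of Sod2+/+ replicate 17 (differences of 0.48 to 0.64, limma adjusted p from 0.0432 to 0.157). It stood highest in Sod2-/- replicate 35, the array with the lowest Hspa1b of that genotype. Dnajc7, which binds HSP70 and HSP90 together, had 7.20 to 7.58 in the Sod2+/+ arrays and 6.02 to 6.34 in the Sod2-/- arrays, and fell by 1.12 (standard error 0.11, limma adjusted p = 0.00640). Dnaja2, a main partner of HSC70, fell by 0.51 (limma adjusted p = 0.0406), and Dnajc5, the cysteine string protein, fell by 0.48 (limma adjusted p = 0.0289).

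Of the 8 other HSP70 and HSP110 genes, 1 fell, Hspa14 of the ribosome-associated complex (-0.63, limma adjusted p = 0.0208), and 7 were not called (median difference 0.10). None of the 9 exchange factors and cochaperones of HSP70 was called, though 8 lay below 0, of which 4 at an unadjusted p under 0.05 (median difference -0.29). Among them Bag6 differed by -0.57 (limma adjusted p = 0.108) and Bag1 by -0.54 (0.0539). Of 14 HSP90 cochaperones 2 fell and 12 lay below 0 (median difference -0.31). These were Nudc, which had 8.15 to 8.55 in the Sod2+/+ arrays and 7.17 to 7.76 in the Sod2-/- arrays (-0.82, limma adjusted p = 0.0289), and Cacybp (-0.39, limma adjusted p = 0.0488).

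**Figure D4:**
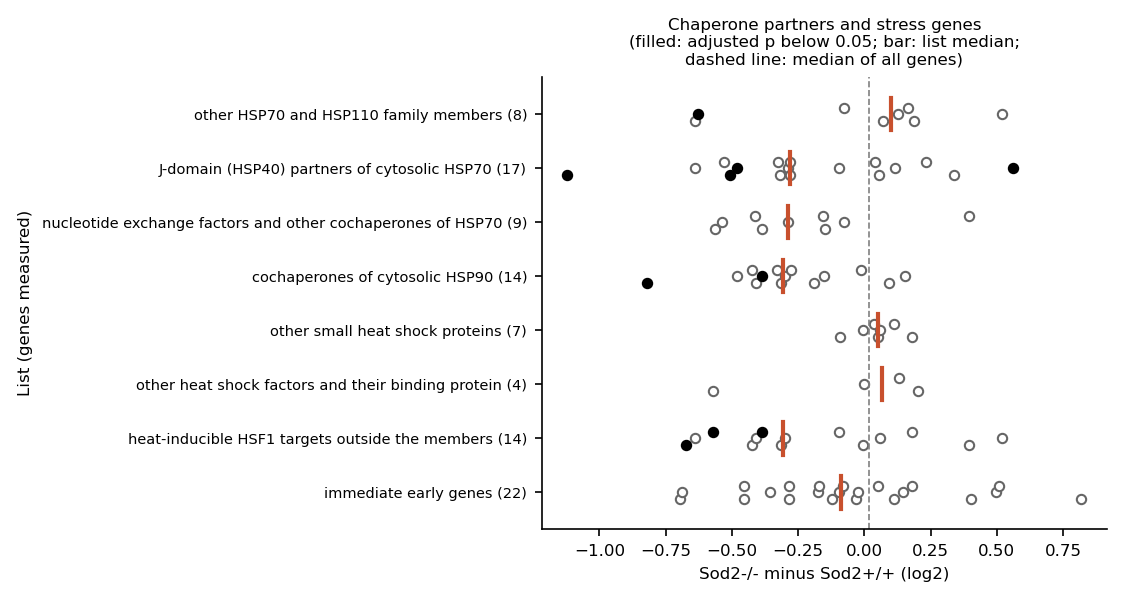
Difference between Sod2-/- and Sod2+/+ arrays (x axis, log2) of each gene in the 8 lists (y axis, number of genes measured in parentheses), filled where the limma adjusted p was below 0.05, with the list median as a red bar and the median of all genes, 0.02, as a dashed line. The J-domain partners, HSP70 cochaperones, HSP90 cochaperones and HSF1 targets have medians of -0.28 to -0.31, and the remaining lists of -0.09 to 0.10. Most HSF1 targets also stand in another list.

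Of 14 other genes that HSF1 is known to induce, 3 fell and none was called higher (median difference -0.31), and 2 of the remainder lay higher at an unadjusted p under 0.05 (Bag3 and Hspa4l). All but Hspd1, Hspe1 and Serpinh1 also stand in the other lists, so this median is not independent of theirs. The 3 that fell were Hspd1 and Hspe1, the mitochondrial chaperonin and its lid, which share one promoter region (-0.67 and -0.57, limma adjusted p = 0.0368 and 0.0321), and Cacybp. The windows of Hspd1 and Hspe1 hold the 3 alternating units, as do those of Chordc1 and Dnajb6, of 74 list genes with a window. Bag3, a cochaperone induced with HSP70, had 5.10 to 5.23 in the Sod2+/+ arrays and 5.29, 5.36 and 6.02 in Sod2-/- replicates 31, 35 and 39 (limma adjusted p = 0.224). Hspa4l, an HSP110 protein, had 6.45 to 6.92 in the Sod2+/+ arrays and 7.55, 6.85 and 7.23 in the same Sod2-/- arrays (limma adjusted p = 0.162).

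The other heat shock factors and small heat shock proteins had no call, and at an unadjusted p under 0.05 only Hsbp1 lay lower and none higher. Among 4 genes of heat shock factors and their binding proteins, Hsbp1, which binds HSF1, differed by -0.57 (limma adjusted p = 0.100) and Hsf2 by 0.20 (0.340). Among the 7 other small heat shock proteins, the largest differences were in Hspb7, 0.18 (limma adjusted p = 0.328), and Cryaa, 0.11 (0.657).

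The Hspa1b call on 1427127_x_at held in 2 of 18 alternatives, array weights and leaving out Sod2-/- replicate 35, where chip lot and genotype coincide. The 4 Hspa1a and Hspa1b probe sets lay above 0 in every alternative in which they were fitted. As the genotypes did not overlap on these probe sets or on Hspb6, leaving out or subsetting arrays could not turn the sign. The call of Hspb6 held in 11 of 19, and its difference ran from -1.26 to -0.88.

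**Figure D5:**
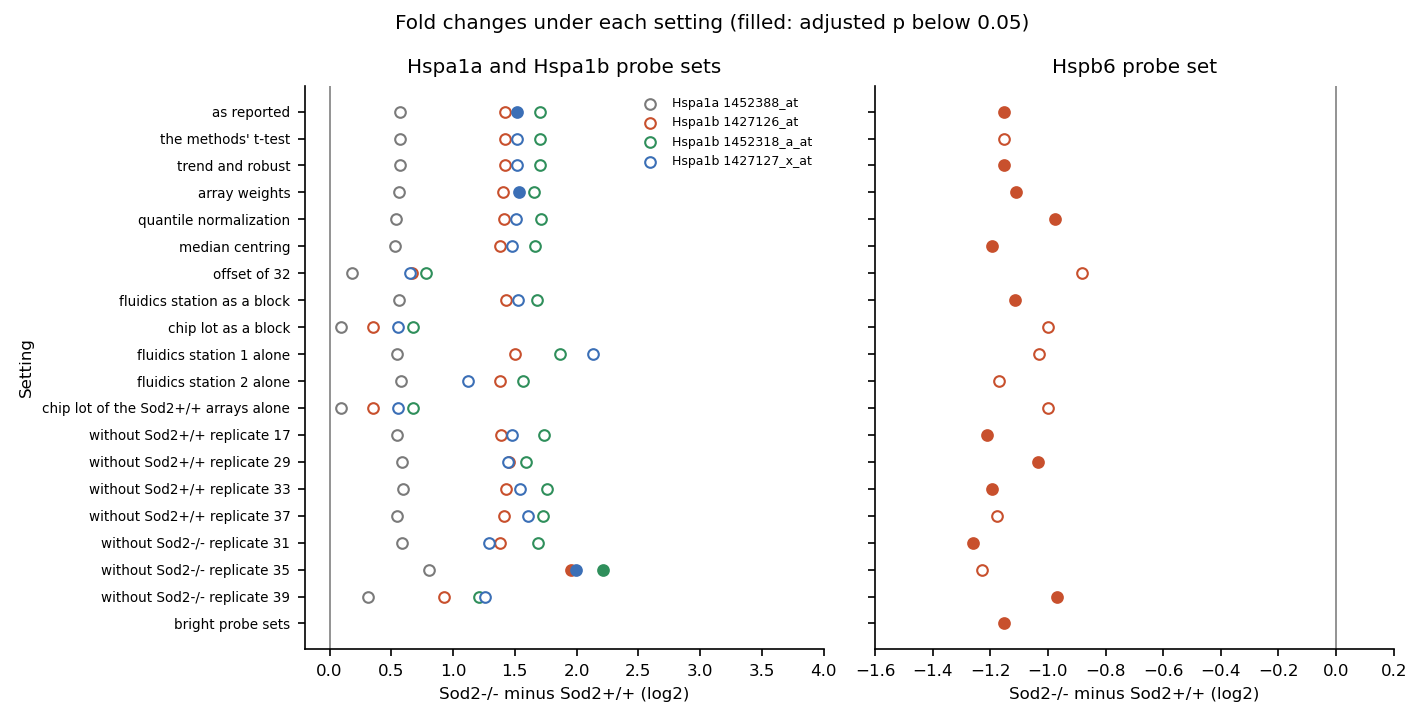
Difference between Sod2-/- and Sod2+/+ arrays (x axis, log2) of the Hspa1a and Hspa1b probe sets (left) and of Hspb6 (right) under each setting (y axis), filled where the adjusted p was below 0.05. The Hspa1b points fall to between 0.35 and 0.68 where the chip lot enters and rise to between 1.96 and 2.22 without Sod2-/- replicate 35, and Hspb6 stays between -1.26 and -0.88.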

How the data were processed

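Total RNA of 7 sorted erythroblast samples was hybridised to Affymetrix mouse arrays. The deposited log2 values had been normalized by the authors with RMA (robust multi-array averaging), and the submitters' processing notes also name GCOS 1.3.037. It is not known here whether one more Sod2-/- array was part of that normalization. Chip lot, fluidics station and fluidics module came from the text settings of each array. After 64 controls were left out, 45037 probe sets were tested without further normalization, of which 34945 matched 1 gene, 932 several and 9160 none.

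The genotypes were compared with limma 3.58.1 in R 4.3.3 (lmFit, eBayes, genotype as the only term), two-sided, and p-values were adjusted over all probe sets (Benjamini-Hochberg). The methods name a t-test with this adjustment, which was an alternative in its equal-variance form. Other alternatives were trend and robust estimation, array weights (statmod 1.5.0), quantile normalization, median centring, an offset of 32, probe sets with a mean above 4.48, station and chip lot as a block or alone, and each array left out. The limma step was tested on simulated data. List genes were taken on the brightest probe set matched to them alone, and summed levels add their linear values. Named list genes are up to 3 in each direction with the largest change among those called, or the 2 largest where none was. Bag3, Hspa4l and the macrophage markers were named after their values were seen. Genes most like Hspa1a and Hspa1b were ranked by Pearson r among 1-gene probe sets above the median. Some list genes are not reported here. Members and lists were chosen with earlier results of these data known. Motifs were counted in RefSeq promoter windows, and figures were drawn with matplotlib 3.10.9. Precision is limited by having 7 arrays.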

Additional observations from a re-analysis of the deposited data

Results flagged for a closer look

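In 2 of the 20 heat shock protein probe sets 1 of the 4 Sod2+/+ arrays stood far from the other 3, where chance gives about 1 in 20. On Hspa8 1420623_x_at replicate 33 was lowest at 10.30, and its gap to the next array was 0.962 of the group's range. On Hspa1b 1452318_a_at replicate 29 was lowest at 3.36, with a gap of 0.83 of the range, just over the critical value for 4 samples.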

How the results depend on the processing

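Of the heat shock protein probe sets, 0 were called higher with the methods' t-test, trend and robust estimation, quantile normalization, median centring, the offset of 32, probe sets above the median alone, station or chip lot as a block, either station alone or chip lot 1 alone, and 0 to 3 with 1 array left out (3 without Sod2-/- replicate 35). The bright subset holds no Hspa1a or Hspa1b probe set. None were called lower with the t-test, the offset, chip lot as a block, either station alone or chip lot 1 alone, and 0 to 2 with 1 array left out. Over all probe sets, 255 were called higher and 1275 lower. The counts were 1 and 3 with the t-test, 656 and 826 with quantile normalization, 59 and 172 with the offset, 150 and 744 with station as a block, 82 and 735 with chip lot as a block, 43 and 459 in chip lot 1 alone and 0 and 0 in either station, with 163 higher after median centring and 2076 lower among bright probe sets. With 1 array left out they were 45 to 171 higher and 98 to 1149 lower, each lowest without Sod2-/- replicate 35. Genes of the 8 lists, immediate early genes included, called higher were 0 with chip lot as a block or alone and 0 to 1 with 1 array left out, and those called lower were 4 in chip lot 1 alone and 1 to 8 with 1 array left out (3 without Sod2+/+ replicate 17 or Sod2-/- replicate 39, 5 without Sod2-/- replicate 31).

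Over the 20 probe sets and their alternatives, 314 of 372 differences kept their direction and side of the threshold, 24 lost a call, 3 gained one and 31 changed sign, none of the last on a called probe set. On the called probe sets the genotypes did not overlap, so most alternatives could not turn their sign. With chip lot as a block or alone, signs turned for Hspa8 1420623_x_at (0.037) and 1431182_at (0.042), Hsp90aa1 1426645_at (-0.028) and 1433251_at (-0.0017), Dnajb1 1416756_at (0.034) and Hsph1 1425993_a_at (-0.46). Station 2 alone gave 0.051 and 0.061 for these Hspa8 probe sets and 0.077 for Dnajb1 1416756_at. Station 1 alone gave -0.067 and -0.060 for Hsp90aa1 1426645_at and 1441827_x_at and -0.087 for Hspb1 1422943_a_at, which was -0.012 after median centring. Quantile normalization gave 0.010 for Hsp90aa1 1438902_a_at and 0.14 for Dnajb1 1416756_at. With 1 array left out, Hspa8 1431182_at ran from -0.049 to 0.017, Hsp90aa1 1426645_at from -0.042 to 0.15, Hspb1 1422943_a_at from -0.073 to 0.094, Dnajb1 1416756_at from -0.11 to 0.041, Hsph1 1425993_a_at from -0.13 to 0.32 and the Actb control difference from -0.049 to 0.021. The cause of these changes was not tested. No paired analysis was possible because, although samples of both genotypes were sorted side by side in pairs, the labels do not tell which samples formed a pair. Signal over background limits Hspa1a and Hspa1b in the Sod2+/+ arrays and in Sod2-/- replicate 35, and Hspa1a in replicate 31. It also limits Hspa8 1431182_at, Hsp90aa1 1441827_x_at and 1433251_at and Hsph1 1423566_a_at, whose means lay below the median probe set.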
